A study of Mus musculus with 6 samples.

Results

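Keratins are the intermediate filament proteins of epithelial cells. The keratin gene family was taken here as every row of the count table whose mouse gene symbol is Krt followed by digits alone, which gave 50 genes of 55385. The libraries come from the mouse cell line PDVC57, established from a squamous cell carcinoma of the skin. In 3 libraries Sox2, a stem cell transcription factor, was knocked out, and in 3 it was overexpressed. Unmodified PDVC57 cells were not analysed here. The series' design text describes carcinoma cells low or high in Sox2, taken from grafted tumours, and its subject is how Sox2 in the tumour's stem-like cells relates to neutrophils. Whether each line was a clone or a pool, what drove the added Sox2, and the host animals are not given in the sources used here. Nothing in the labels says that replicates came from separate cultures or tumours, so p-values measure the spread between these libraries, which may be technical.

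Keratin filaments are built from dimers of a type I keratin, which is acidic, and a type II keratin, which is basic to neutral. Which members a cell makes depends on its type and state. Simple epithelia use Krt8 with Krt18, the basal layer of skin uses Krt5 with Krt14, the layers above it Krt1 with Krt10, and wet stratified linings such as mouth and oesophagus Krt4 with Krt13. Krt6a, Krt16 and Krt17 come on in wounded or hyperproliferative skin, and a large set serves the hair follicle. The 50 genes were grouped in this way into 6 simple, 3 basal, 5 mucosal (with the corneal Krt12), 7 suprabasal, 2 stress and 24 hair keratins, with 3 outside these classes. Krt6a, Krt6b, Krt33a and Krt33b carry a letter in their symbols, so the rule leaves them out. Their values are given where a pair needs them.

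Sox2 checked the labels. It was at 1.44, 1.12 and 0.685 CPM (counts per 1e6 counts of the library, scaled by TMM, a method that assumes most genes do not change) with knockout, and at 78.3, 128 and 104 CPM with overexpression. Library totals lay between 31247976 and 38543221 counts. Fibroblast markers differed between the groups in every library. All 10 of the list (among them Col1a1, Col3a1, Pdgfra and Dcn) were lower with overexpression. Their summed level was 60420.5 to 87951 CPM with knockout and 277 to 443 CPM with overexpression. By edgeR's quasi-likelihood test (adjusted p under 0.05), 18.0% of all tested genes were lower and 13.6% higher. Those shares stand beside each marker count given here. Of 9 tested endothelial markers 8 were lower (40.1 to 135 against 14.04 to 20.8 CPM in sum). White blood cell markers gave 6 lower and 1 higher of 9 tested, with sums of 54.1 to 241 and 26.3 to 67.0 CPM. The highest endothelial and white cell sums were both in knockout replicate 3. No marker of the 3 lists was at 0 in all overexpression libraries. Epithelial genes other than keratins, the defining markers of the labelled cell type, were detected in all libraries, and 17 of 20 were higher with overexpression (3314 to 4729 against 7967 to 9489.5 CPM in sum). In bulk RNA, fewer cells of a type and less RNA per cell cannot be told apart. The changes of the keratins are therefore also given with the libraries scaled to these epithelial genes, a choice made with earlier results of these data known. Under that scaling the median over all 18504 tested genes stood at -1.35 (log2 fold change) in place of -0.02, and the part of other cell types in the keratin changes was not tested.

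The sequences upstream of 4 keratins that rose are shown because Sox2 is the manipulated factor and these promoters hold letters of a SOX-type site or, in Krt13, of an AP-1 site. RefSeq (GRCm38.p6) gave start sites for 35 of the 50 genes. Each line runs from 250 to 51 bases before the start site, 5′ to 3′ on the gene's own strand, and capitals mark ACAATG or ACAAAG (SOX-type) and TGANTCA (AP-1), on either strand.
Krt13 (chr11:100121617-100121816, minus strand): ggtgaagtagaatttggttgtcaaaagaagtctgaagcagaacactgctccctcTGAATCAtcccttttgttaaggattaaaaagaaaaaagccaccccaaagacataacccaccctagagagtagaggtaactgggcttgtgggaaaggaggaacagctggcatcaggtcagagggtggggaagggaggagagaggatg
Krt23 (chr11:99493171-99493370, minus strand): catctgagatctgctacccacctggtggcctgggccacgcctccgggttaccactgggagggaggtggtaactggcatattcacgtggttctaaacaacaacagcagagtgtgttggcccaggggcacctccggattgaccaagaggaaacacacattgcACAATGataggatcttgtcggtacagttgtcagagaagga
Krt42 (chr11:100270002-100270201, minus strand): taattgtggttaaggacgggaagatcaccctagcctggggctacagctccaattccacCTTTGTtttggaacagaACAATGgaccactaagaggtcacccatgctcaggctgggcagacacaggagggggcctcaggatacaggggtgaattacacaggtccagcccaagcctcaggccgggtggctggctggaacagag
Krt18 (chr15:102027966-102028165, plus strand): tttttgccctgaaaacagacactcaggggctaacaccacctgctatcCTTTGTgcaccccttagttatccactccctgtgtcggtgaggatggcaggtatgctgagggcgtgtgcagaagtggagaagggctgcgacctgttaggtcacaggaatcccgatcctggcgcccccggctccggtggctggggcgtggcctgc
RefSeq lists a second start site for Krt13, whose upstream window holds AP-1 letters at -183 to -177 and -34 to -28. Counted from the start sites of the printed lines, the letters lie at -196 to -190 in Krt13 (AP-1), -90 to -85 in Krt23, -192 to -187 and -175 to -170 in Krt42 and -203 to -198 in Krt18. In the full 250 bases before the start, 8 of the 35 keratins with a promoter held either SOX-type spelling, where 25.2% of 32851 mouse promoters do. Those 8 were Krt18, Krt23 and Krt42, which rose, Krt36, which did not pass, and the untested Krt9, Krt25, Krt31 and Krt84. Neither spelling stood upstream of Krt7, Krt8, Krt12, Krt13 and Krt78, which also rose. The risen Krt4, Krt15, Krt17, Krt19 and Krt80 had no start site in the sources used here, so their promoters were not read. Krt13 was the only keratin of the 35 with the AP-1 letters, which 6.75% of all promoters hold. The TATA letters (TATAAA, on either strand) stood in 16 of the 35, against 12.4% of all promoters, and most of those 16 are hair keratins. These matches describe letters only and show no binding.

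Keratin RNA made up 0.603%, 0.575% and 0.386% of all counts in knockout replicates 1, 2 and 3 and 1.05%, 1.29% and 1.34% in overexpression replicates 1, 2 and 3. The summed level was 5851, 6016 and 3788 CPM against 10036, 13987 and 13079 CPM. The groups did not overlap, and the mean log2 difference was 1.26, given without a test because it sums chosen genes. With scaling to the other epithelial genes the difference was -0.068. The replicate SD of the TMM-scaled sums was 0.32, and that of the sums with the epithelial scaling is not given here. Keratin RNA and the RNA of other epithelial genes were thus higher by a similar factor, and what differed within the family was its make-up.

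Of the 50 genes, 27 passed the filter on low counts and were tested. In edgeR's quasi-likelihood test 13 rose with overexpression (adjusted p under 0.05), 2 fell and 12 did not pass. Over all 18504 tested genes 13.6% were higher and 18.0% lower, 31.6% in all. The median log2 fold change was 1.01 for the tested keratins and -0.02 for all tested genes. Scaled to the other epithelial genes, 9 keratins were higher and 8 lower, where 1.62% of all tested genes were higher and 81.1% lower, 82.7% in all. The 9 were Krt4, Krt13, Krt12, Krt78, Krt15, Krt19, Krt23, Krt7 and Krt80, all among the 13. The filter asked for about 10 counts in at least 3 libraries. Krt4, Krt12, Krt20 and Krt23 met it only through the overexpression libraries and Krt36, Krt76, Krt79 and Krt83 only through the knockout libraries. For the 5 of these 8 that were called (Krt4, Krt12, Krt23, Krt79 and Krt83), passing and differing are tied, so their counts and tests are given as a description. Exons of another gene lie on the opposite strand of Krt5, Krt6a, Krt6b, Krt7, Krt8, Krt10, Krt12, Krt76 and Krt80. The same holds for the untested Krt32, Krt75 and Krt90. Whether the counting read strand is not given in the sources used here, so reads of the 2 strands cannot be told apart there. The other 23 genes were not tested. Of those, Krt34 and Krt74 had no count in any library, 14 had at most 10 counts in every library, and the highest count was 589, of Krt1.

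**Figure D1:**
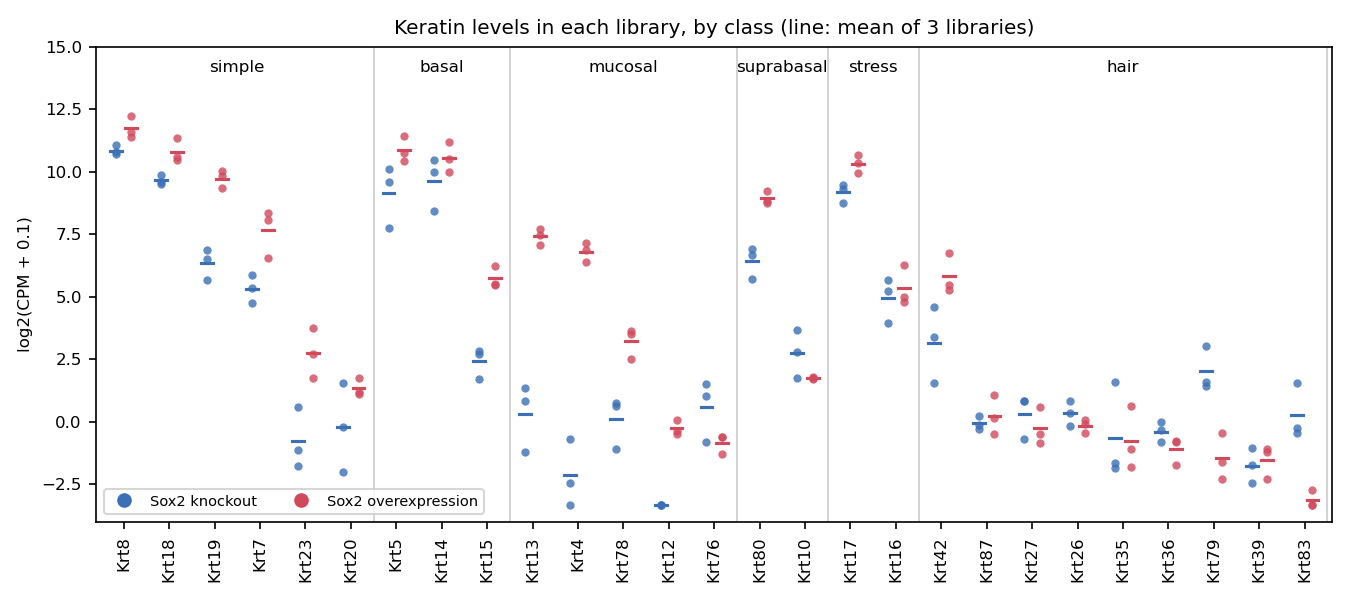
Level of each of the 27 tested keratins in every library, as log2(CPM + 0.1), grouped by class. Points are libraries (3 per group) and lines are group means; Krt4 and Krt13 stand farthest apart among the members above 10 CPM, and Krt14 and Krt16 overlap.

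The largest rises among keratins with counts in both groups were those of the mucosal pair Krt4 and Krt13. Krt4, the type II keratin of mouth and oesophagus lining, was at 0.528, 0 and 0.0822 CPM in the knockout libraries and 141, 116 and 83.0 CPM in the overexpression libraries. It rose by 9.07 on the log2 scale (standard error 0.65, adjusted p = 1.58e-05, edgeR). The knockout libraries held 18, 0 and 3 counts, and without replicate 1 their mean fell from 0.203 to 0.0411 CPM, so the size of the rise is poorly fixed. Krt4 met the filter only through the overexpression libraries, so its test is a description. Its type I partner Krt13 was at 2.43, 0.331 and 1.70 CPM against 213, 135 and 176 CPM, and rose by 6.85 on the log2 scale (standard error 0.56, adjusted p = 3.43e-05). For both genes the groups were far from overlapping. Both remained higher with scaling to the epithelial genes, by 7.82 and 5.62 (adjusted p = 1.79e-08 and 4.15e-08).

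The remaining mucosal genes were far less abundant. Krt78, found in differentiated stratified epithelium, was at 1.47, 0.364 and 1.56 CPM with knockout and 11.3, 5.62 and 12.2 CPM with overexpression. That rise of 3.09 (standard error 0.53, adjusted p = 0.00253) was 1.85 with the epithelial scaling. The corneal keratin Krt12 had no counts with knockout and 20, 28 and 27 counts with overexpression, at least 7.53-fold higher against a floor of 3 counts per library. It was also called with the epithelial scaling (adjusted p = 0.000362). Krt12 met the filter only through the overexpression libraries, so its test is a description. Krt76, the type II keratin of the palate, went the other way without passing the test: 2.73, 1.95 and 0.466 CPM against 0.549, 0.304 and 0.556 CPM, with an overlap in knockout replicate 3. The log2 fold change was -1.85 (adjusted p = 0.0535, edgeR). Leaving out knockout replicate 3 gave an adjusted p of 0.00343, and the alternatives spanned 0.000363 to 0.171. With the epithelial scaling it was lower, at -3.15 (adjusted p = 0.000363).

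Simple keratins were the largest class in every library. Per length of transcript, the highest keratin in both groups was Krt8, at a mean of 951 CPM per kb with knockout and 1812 CPM per kb with overexpression, followed by its partner Krt18 at 566 and 1292 CPM per kb. Krt8 was at 2136, 1769 and 1679 CPM against 2704, 4839 and 3102 CPM, a rise of 0.93 (standard error 0.25, adjusted p = 0.0232, edgeR) that turned to -0.41 with the epithelial scaling. Its adjusted p was 0.0845 without knockout replicate 2 and 0.0772 without knockout replicate 3. Krt18 was at 928, 735 and 777 CPM against 1406, 2619 and 1546 CPM, a rise of 1.19 (standard error 0.26, adjusted p = 0.00849) that turned to -0.15. For both genes the groups did not overlap, and overexpression replicate 2 was the highest library.

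Krt19, a type I keratin that marks ducts, simple epithelia and some stem cell niches, set itself apart from that pair. It was at 117, 50.4 and 90.4 CPM with knockout and 1043, 905 and 653 CPM with overexpression. The log2 fold change was 3.33 (standard error 0.33, adjusted p = 0.000119), and 2.06 with the epithelial scaling (adjusted p = 1.73e-05). Krt7, the type II keratin of ducts and glands, rose from 58.5, 26.7 and 40.9 CPM to 331, 269 and 93.1 CPM. Its change was 2.46 (standard error 0.46, adjusted p = 0.00395), or 1.17 with the epithelial scaling, with overexpression replicate 3 the lowest of its group. The low-abundance Krt23 was at 0.352, 1.39 and 0.192 CPM against 13.5, 6.43 and 3.24 CPM, a rise of 3.60 (standard error 0.78, adjusted p = 0.00779). Leaving out knockout replicate 2 gave 4.82, leaving out overexpression replicate 1 gave 2.94, and the epithelial scaling gave 2.15. Krt23 met the filter only through the overexpression libraries, so its test is a description. Krt20, an intestinal and urothelial keratin, did not pass (0.147 to 2.84 against 2.07 to 3.28 CPM, adjusted p = 0.362).

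The basal keratins were split. Krt5 was at 772, 1105 and 218 CPM with knockout and 1389.7, 1720.4 and 2778 CPM with overexpression. The groups did not overlap, but knockout replicate 3 lay far below the other knockout libraries, and the log2 fold change of 1.49 (standard error 0.52) had an adjusted p of 0.0584. It was 0.10 with the epithelial scaling. Leaving out knockout replicate 2 gave an adjusted p of 0.0392 and leaving out overexpression replicate 1 gave 0.0497, and the alternatives spanned 0.000413 to 0.847. Krt14 overlapped between groups, at 1019.7, 1439.8 and 347 CPM against 1025, 1469.7 and 2327 CPM (log2 fold change 0.78, adjusted p = 0.251, and -0.61 with the epithelial scaling). Krt15, a type I keratin of basal cells and of the hair follicle bulge, was at 6.54, 7.04 and 3.15 CPM against 75.3, 45.3 and 44.4 CPM. It rose by 3.30 (standard error 0.35, adjusted p = 0.000159), and by 1.95 with the epithelial scaling.

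Stress keratins did not move as a block. Krt17 was at 646, 709.7 and 433 CPM against 999, 1321 and 1632 CPM, a rise of 1.14 (standard error 0.25, adjusted p = 0.00892) that turned to -0.21 with the epithelial scaling. Krt16 overlapped between groups, at 15.4, 37.2 and 50.8 CPM against 31.4, 27.8 and 76.6 CPM. Its log2 fold change of 0.39 (adjusted p = 0.564) was -0.20 without overexpression replicate 3 and -0.98 with the epithelial scaling (adjusted p = 0.053). Krt6a, a type II partner of both and outside the symbol rule, was at 216, 157 and 111 CPM against 1836, 1454 and 1907 CPM. Its rise of 3.42 (standard error 0.28, adjusted p = 3.21e-05) was 2.11 with the epithelial scaling. Krt6b, its close copy, overlapped between groups (1.03, 7.84 and 31.4 against 8.42, 6.70 and 10.9 CPM, log2 fold change -0.63, adjusted p = 0.61), was at 0.98 without knockout replicate 3, and was lower with the epithelial scaling (-1.98, adjusted p = 0.0194). Of the 31-base words in Krt6a transcripts 45.9% also occur in Krt6b, so the split of reads between them is uncertain. Krt16 shares 51.9% of its words with other genes, most with the predicted gene Gm11597, and Krt14 shares 17.6% with Krt16.

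Among suprabasal keratins only Krt80 and Krt10 were tested. Krt80, a type II keratin that appears as epithelial cells differentiate, was at 121, 51.8 and 102 CPM with knockout and 602, 452 and 432 CPM with overexpression. It rose by 2.44 (standard error 0.31, adjusted p = 0.000475), and by 1.17 with the epithelial scaling. Krt10, the classic type I keratin of the spinous layer, was at 3.28, 6.88 and 12.8 CPM against 3.39, 3.28 and 3.16 CPM. The log2 fold change was -1.22 (adjusted p = 0.0655, edgeR), and -0.62 without knockout replicate 3. Leaving out knockout replicate 1 gave an adjusted p of 0.0072, and the alternatives spanned 0.000173 to 0.24. With the epithelial scaling it was lower, at -2.59 (adjusted p = 0.000173). Its partner Krt1 was not tested and had 1, 91 and 589 counts with knockout and 6, 0 and 3 counts with overexpression. Knockout replicate 3 held 85.4% of all Krt1 counts.

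**Figure D2:**
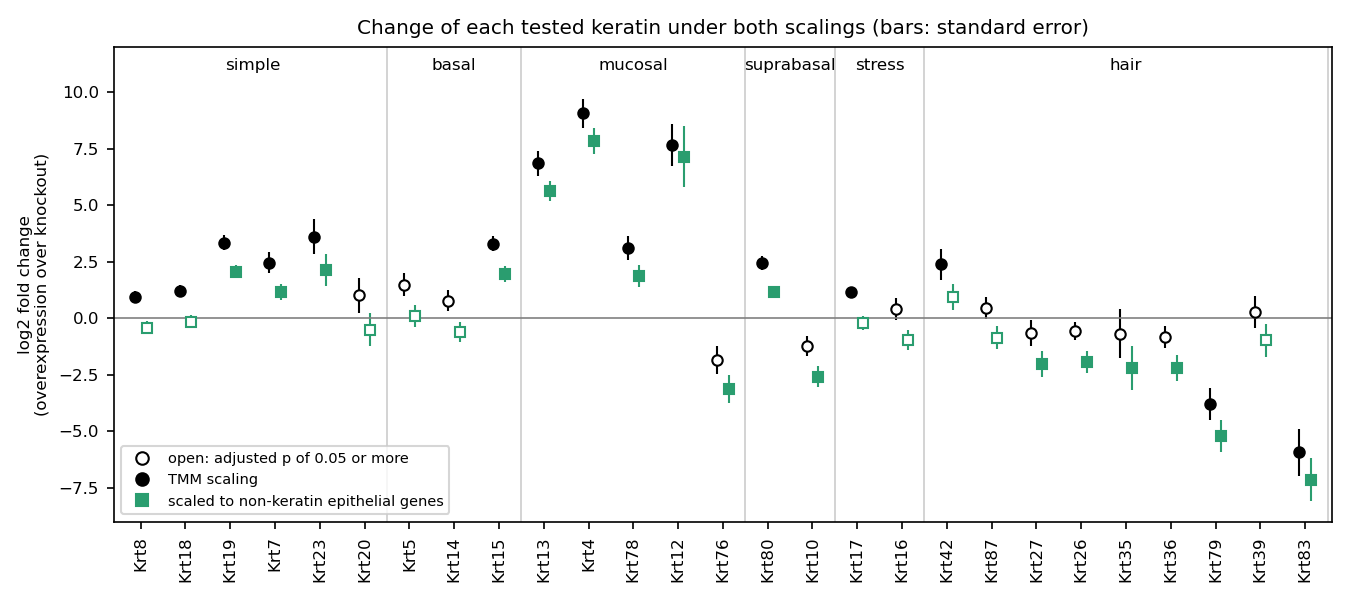
Log2 fold change (overexpression over knockout) of each tested keratin with its standard error, by class. Black circles use TMM and green squares use scaling to non-keratin epithelial genes, and open symbols did not reach an adjusted p under 0.05; Krt8, Krt18, Krt20, Krt14, Krt17, Krt16, Krt87 and Krt39 lie above 0 with TMM and below 0 with the other scaling.

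Hair keratins were mostly at a few counts, and 15 of 24 were not tested. Krt42, a type I keratin of the nail unit and hair follicle that lies next to Krt17, was the one that rose. It was at 10.3, 23.7 and 2.80 CPM against 39.1, 44.5 and 108 CPM (log2 fold change 2.38, standard error 0.69, adjusted p = 0.0289). The call was lost without knockout replicate 1 (adjusted p = 0.0739), overexpression replicate 2 (0.0585) or overexpression replicate 3 (0.088) and with the epithelial scaling (0.139), and the adjusted p ranged from 3.34e-06 to 0.139 over the alternatives. Leaving out knockout replicate 2 gave a log2 fold change of 3.29, and leaving out overexpression replicate 3 gave 1.79. Krt79, which lines the follicle's infundibulum and the sebaceous duct, fell. It had 2.93, 8.13 and 2.58 CPM against 0.641, 0.101 and 0.228 CPM, a log2 fold change of -3.79 (standard error 0.71, adjusted p = 0.00382). This was -3.07 without knockout replicate 2, its highest library, -4.70 without overexpression replicate 1, and -5.22 with the epithelial scaling. The overexpression libraries held 21, 3 and 9 counts. Krt79 met the filter only through the knockout libraries, so its test is a description. Krt83, a keratin of the hair cortex, had 25, 19 and 103 counts with knockout and 0, 0 and 2 with overexpression, at least 13.7-fold lower against the floor of 3 counts, and was also called with the epithelial scaling (adjusted p = 1.23e-05). Replicate 3 brought the knockout mean from 0.68 to 1.39 CPM. Krt83 likewise met the filter only through the knockout libraries, and its test is a description. Krt83 shares 29.9% of its words with Krt86, which had at most 13 counts in a library.

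Several inner root sheath and companion layer keratins came from a single library. Krt71 had 392 counts in knockout replicate 2 and at most 6 in any other library. Krt25 had 143 there and at most 8 elsewhere, Krt28 121 and at most 10, Krt75 97 and at most 5, and Krt73 22 and at most 1. That library held between 87.05% and 97.8% of the counts of each of these 5 genes, so they say nothing about the group. Krt27, a type I keratin of the same sheath, did not follow: it had 57, 50 and 19 counts with knockout and 15, 41 and 24 with overexpression. These genes were singled out after their values were seen.

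**Figure D3:**
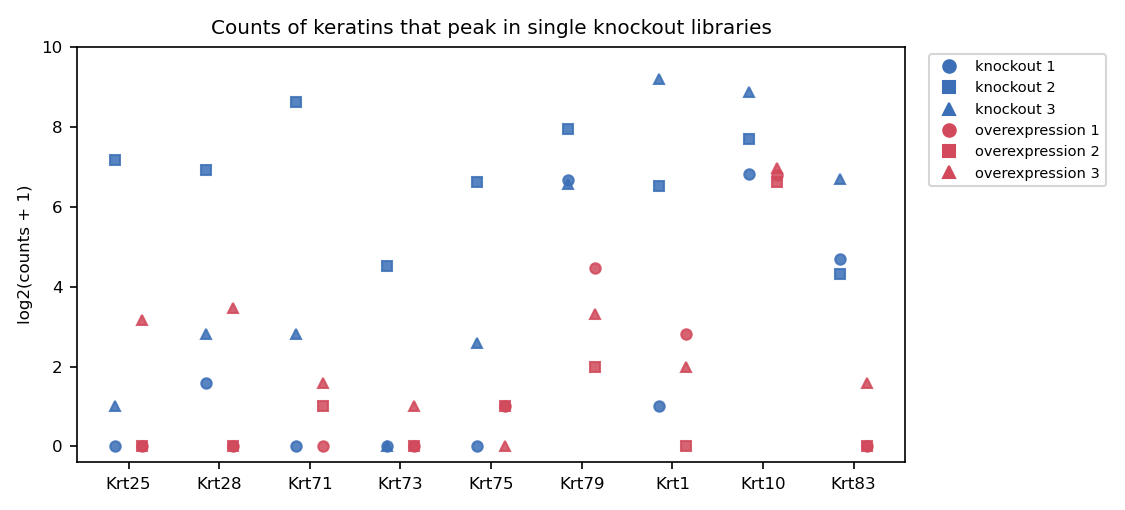
Counts of 9 low keratins in each library, as log2(counts + 1), with a symbol for each replicate number and blue for knockout and red for overexpression. Krt25, Krt28, Krt71, Krt73 and Krt75 peak in knockout replicate 2, Krt1 and Krt83 in knockout replicate 3.

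The make-up of the family was then compared per length, with Krt6a and Krt6b included so that the stress pairs were complete. A share or a ratio within a library does not depend on how libraries are scaled. The mucosal share was 0.0992%, 0.0336% and 0.0785% of the summed keratin level with knockout and 3.18%, 1.64% and 1.86% with overexpression. Krt19 took 2.22%, 0.935% and 2.61% against 10.6%, 6.82% and 5.16%. Krt6a took 2.82%, 2.02% and 2.23% against 12.9%, 7.59% and 10.4%. None of these 3 shares overlapped between groups. In contrast, the simple keratins as a class held 54.5%, 42.6% and 66.8% against 49.8%, 58.7% and 38.6%, and the basal keratins 28.5%, 39.6% and 13.9% against 20.5%, 19.9% and 33.1%, with overlap in both. Krt17 held a share that varied little, at 12.4%, 13.4% and 12.7% against 10.3%, 10.1% and 13.1%.

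**Figure D4:**
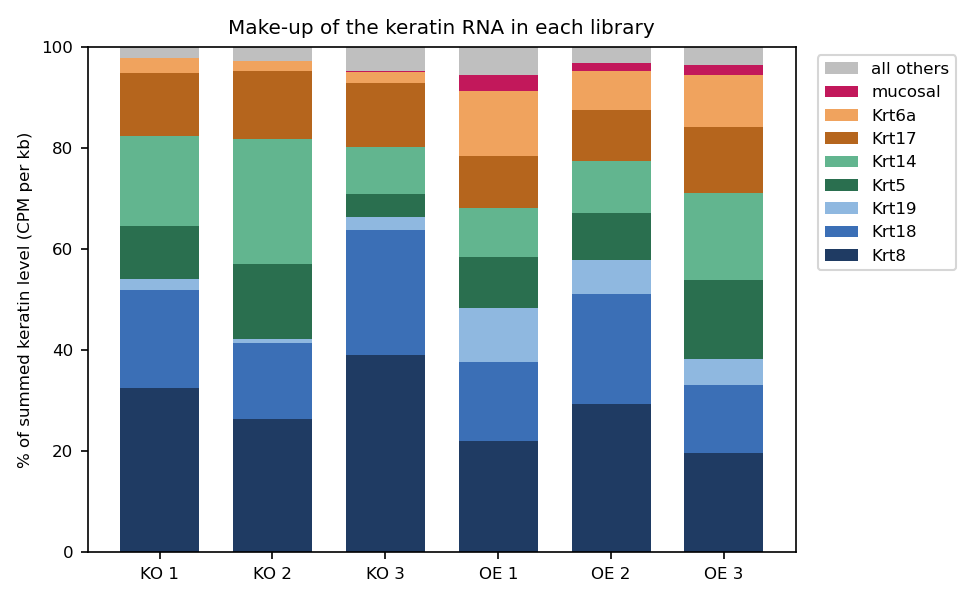
Share of the summed keratin level (CPM per kb, Krt6a and Krt6b included) taken by the main keratins in each library. KO and OE are knockout and overexpression replicates 1 to 3; Krt19, Krt6a and the mucosal keratins take larger shares in all 3 OE bars.

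Type I and type II keratins stayed close to balance at the RNA level. Over the 50 genes, the ratio of summed type I to summed type II level per length was 1.18, 1.32 and 1.12 with knockout and 1.35, 1.23 and 1.38 with overexpression. With Krt6a and Krt6b it was 1.11, 1.26 and 1.06 against 0.997, 1.03 and 1.08. The groups overlapped in both versions. Of 17 tested type I keratins 8 rose and 0 fell, and of 10 tested type II keratins 5 rose and 2 fell. Over all tested genes 13.6% were higher and 18.0% lower.

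Within single pairs the balance differed between groups. The ratio of Krt5 to Krt14 was 0.585, 0.593 and 0.484 with knockout and 1.05, 0.905 and 0.922 with overexpression. Means were 0.554 ± 0.0606 and 0.958 ± 0.0778 (SD, n = 3 each). The ratio varied less within the knockout group than Krt5 itself, which spanned 218 to 1105 CPM. Krt8 over Krt18 went from 1.69, 1.77 and 1.58 to 1.41, 1.36 and 1.47, a smaller difference also without overlap. Krt4 over Krt13 was 0.168, 0 and 0.0375 against 0.512, 0.668 and 0.366, with the knockout values resting on few counts. Krt6a over Krt17 was 0.227, 0.151 and 0.175 against 1.25, 0.75 and 0.796, and Krt19 over Krt18 was 0.115, 0.0625 and 0.106 against 0.676, 0.315 and 0.385. The balance of basal to simple keratins, read as Krt5 over Krt8, overlapped: 0.322, 0.556 and 0.116 against 0.458, 0.317 and 0.798. Over all tested genes 24.4% had every overexpression library above every knockout library in CPM and 26.5% the reverse. Those shares are for single genes, and none was computed for ratios of gene pairs. Krt5 shares 9.46% of its words with Krt6a, and Krt8 shares 32.2% with the pseudogene Krt8-ps, which could shift a ratio, and their part in it was not tested.

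**Figure D5:**
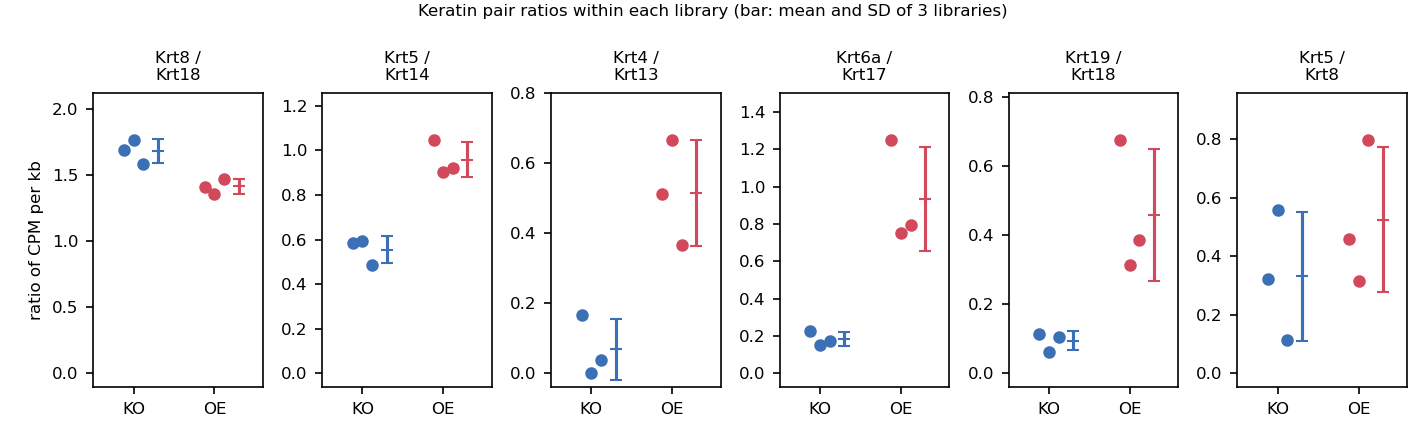
Ratio of the level per length (CPM per kb) of keratin pairs in each library, with the mean and SD of 3 knockout (KO) and 3 overexpression (OE) libraries. Krt5 over Krt14, Krt8 over Krt18, Krt4 over Krt13, Krt6a over Krt17 and Krt19 over Krt18 do not overlap between groups, and Krt5 over Krt8 does.

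Neighbours in the keratin clusters moved together in some stretches and not in others. Type I genes other than Krt18 lie on mouse chromosome 11. On its minus strand Krt13 (100117327 to 100121566, GRCm38), Krt15 (100131758 to 100135928) and Krt19 (100140810 to 100148665) follow each other. All 3 rose. The next tested genes on that side, Krt14 (from 100203162) and Krt16 (from 100246091), did not pass the test. Beyond them on the same strand, Krt17 (100256217 to 100261029) and Krt42 (100262882 to 100269871) rose with TMM. Type II genes lie on chromosome 15, as does the type I gene Krt18. There Krt79 (101929332 to 101940324), which fell, stands between Krt4 (101918535 to 101924735) and Krt78 (101946001 to 101954287), which rose.

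Genes whose products bind or anchor keratin filaments were examined from a list of 20 plakin, desmosome and hemidesmosome genes. With TMM, 11 rose and 0 fell, with a median log2 fold change of 0.99, where 13.6% of all tested genes were higher and 18.0% lower. Unadjusted p-values were under 0.05 for 15 higher genes and 1 lower gene, and the Wald test of DESeq2 called 15 higher and 1 lower (Tchp, which encodes the keratin-binding trichoplein). The largest rises were those of Dsg3, Pof1b and Dsc2. Dsg3, the basal desmosomal cadherin, was at 16.7, 22.7 and 8.44 CPM against 114, 60.4 and 119.6 CPM (log2 fold change 2.62, adjusted p = 0.00107, edgeR). Pof1b, a filament and junction protein, rose by 2.06 and Dsc2, a desmocollin, by 1.86 (adjusted p = 0.00179 and 0.00138). With the epithelial scaling 2 were higher, Dsg3 (1.25) and Pof1b (0.75), and 5 lower, where 1.62% and 81.1% of all tested genes were. Dsc2 did not pass (0.54, adjusted p = 0.119).

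Other intermediate filament genes were taken from a list of 15. Of 9 tested, 6 fell and 1 rose, where 18.0% of all tested genes were lower and 13.6% higher, and with the epithelial scaling 8 were lower and 0 higher, against 81.1% and 1.62%. Vim, the filament of mesenchymal cells, was at 2067, 2895 and 1861 CPM with knockout and 482, 1146 and 1155 CPM with overexpression, a log2 fold change of -1.29 (standard error 0.34, adjusted p = 0.0208). Without knockout replicate 2 the adjusted p was 0.0776, the highest among the alternatives, whose lowest was 2.8e-05. Per length, Krt8 over Vim was 1.16, 0.685 and 1.01 against 6.28, 4.73 and 3.01. Nes and Des, filaments of progenitor and muscle cells, fell, with log2 fold changes of -3.45 and -4.56 (adjusted p = 0.000168 and 0.00124). The value of Des was -5.32 without overexpression replicate 2. With the epithelial scaling Vim was at -2.68, Nes at -4.74 and Des at -5.88. Lmna, the nuclear lamin, rose by 0.79 (adjusted p = 0.0366) but turned to -0.56 with the epithelial scaling, and its adjusted p lay above 0.05 in 5 of the 6 fits that left out 1 library (0.0129 to 0.121). Lmnb1 did not pass with TMM (0.37, adjusted p = 0.166) and was lower by the epithelial scaling (-0.97). The fibroblast marker sums given above fell with overexpression, as did Vim, Nes and Des. What part fibroblasts had in the changes of these filament genes was not tested.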

How the data were processed

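The 6 RNA-seq libraries are from PDVC57 cells, 3 per group. The deposited table holds whole-number counts per gene with no normalization, 1 column per library. Kallisto 0.44.0 and the mm10 build are named in the submitters' processing notes. How reads became counts, which annotation was used and whether strand was read are not given in the sources used here. Columns were matched through the samples' descriptions. Of 55481 rows, 96 (spike-ins and other sequences outside the mouse gene set, at most 2.23e-05% of counts) were left out. Symbols and positions come from GENCODE M21 (GRCm38), which matched 55144 gene IDs.

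Genes were filtered with filterByExpr (minimum count 10, total 15), scaled by TMM and tested across all 18504 genes in edgeR 4.0.16 (quasi-likelihood test, R 4.3.3), with Benjamini-Hochberg adjustment and a threshold of 0.05. Standard errors are the log2 fold change divided by the square root of F. Levels per length divide CPM by the longest protein-coding transcript. A count of 0 allows up to 3 counts in a library, 0.0759 to 0.101 CPM, for counting error only. Members, classes and lists were chosen with earlier results of these data known. Named with full values were Sox2, members past the threshold that reached 10 CPM and members that reached 100 CPM in a library. Other members named were chosen after their values were seen. Alternatives were RLE and upper-quartile scaling, scaling to 20 non-keratin epithelial genes by their median ratio, no filter, a robust fit, replicate number as block, DESeq2 1.42.0, and each library left out in turn. No batch or date is in the labels.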

Additional observations from a re-analysis of the deposited data

How the results depend on the processing

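The scaling decided most. Scaled to the non-keratin epithelial genes, 15302 genes were called (299 higher and 15003 lower, against 2519 and 3329 with TMM), 8 keratins and 5 partner genes were lower, 2 partner genes were higher, and the summed keratin difference was -0.068. The same scaling turned the log2 fold changes of Krt8 (-0.41), Krt14 (-0.61), Krt16 (-0.98), Krt17 (-0.21), Krt18 (-0.15), Lmna (-0.56) and Lmnb1 (-0.97), by its construction a shift of nearly all genes. Lower keratins numbered 9 with no filter, which tests more genes, and 4 with DESeq2, and 1 partner gene was lower with DESeq2 or with upper-quartile scaling, where the cause was not tested. With a library left out, 4230 to 5821 genes were called, 12 to 14 keratins were higher and 2 to 4 lower (4 without knockout replicate 1), 9 to 12 partner genes were higher and 0 lower, and the summed keratin difference was 1.05 to 1.43. Krt6b ran from -1.17 to 0.98 (0.98 without knockout replicate 3) and Krt16 from -0.20 to 0.79. Deviations of same-numbered libraries from their group means correlated at 0.051, 0.022 and -0.040, and those of differently numbered libraries at -0.067 to 0.050. With 3 libraries per group these values cannot show whether the numbers pair libraries. With the replicate number as a block, 14 keratins were higher and 2 lower, 13 partner genes were higher and 0 lower, 5593 genes were called, Krt5 had an adjusted p of 0.0463, and Krt6b was at 0.21. Krt4, Krt7, Krt12, Krt13, Krt15, Krt19, Krt23, Krt78 and Krt80 stayed higher with an adjusted p under 0.05 in every alternative run. Krt79 and Krt83 stayed lower in the same way. For Krt4, Krt12, Krt23, Krt79 and Krt83, which passed the filter through 1 group only, this is a description. Of the 23 keratins under the filter, 14 had at most 10 counts in every library, and depth limits what can be said of those.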

Other observations

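Genes that accompany the keratins seen in single knockout libraries were looked up after those keratins were seen. Of 5 other genes linked to the inner root sheath (Tchh, Tchhl1, Padi3, Tgm3 and Gata3), the summed level was 56.0 CPM in knockout replicate 2, which held the root sheath keratins, and 44.8 to 50.9 CPM in the other libraries. Tchh, the sheath protein trichohyalin, was at 4.33 CPM there and at 3.63 and 3.97 CPM in the other knockout libraries, and it was higher with overexpression (6.65, 6.36 and 10.7 CPM, log2 fold change 0.99, adjusted p = 0.0255, edgeR) and at -0.35 with the epithelial scaling. Tgm3, a transglutaminase of hair and epidermis, was at 0.694 CPM in that library and at most 0.152 CPM elsewhere. Most of the summed level in every library came from Tchhl1, Padi3 and Gata3, whose values are not given here. The summed level of 6 genes of the upper epidermis (Lor, Flg2, Sbsn, Dmkn, Krtdap and Calml3) was 41.3, 64.3 and 66.3 CPM with knockout. It was 70.6, 54.8 and 101 CPM with overexpression. By that sum knockout replicate 3, the library with most Krt1, did not stand apart, but the genes of the list differed from each other there. Sbsn, which encodes suprabasin, was at 50.9 CPM in that library, against 18.9 and 28.4 CPM in the other knockout libraries and 10.1 to 19.3 CPM with overexpression. Krtdap was at 3.86 CPM there, against 0.528 and 2.68 CPM in the other knockout libraries. Calml3 was highest in knockout replicate 2, at 1.32 against 0.74 CPM in replicate 3, and Dmkn was lowest in replicate 3, at 10.5 CPM against 20.7 and 30.3 CPM. Flg2 had 1 count in all. Lor, which encodes the cornified envelope protein loricrin, was at 1.14, 1.59 and 0.384 CPM with knockout and 15.2, 18.1 and 23.3 CPM with overexpression (log2 fold change 4.20, adjusted p = 0.000195, edgeR, and 2.82 with the epithelial scaling).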
